A study of Arabidopsis thaliana with 6 samples.

Results

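The features described here are the RNAs recovered with a mouse IgG antibody that does not recognise the HA tag, the background of the NSRa-HA RNA immunoprecipitation. A feature was taken when it had a value above 0 in both Mock (IgG) libraries and a value in both Input libraries, which gave 1511 of 39351 features. The rule used only whether reads were present in Mock, so the RIP values and the Input levels played no part in it.

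The study asked which RNAs are bound by NSRa, a nuclear speckle RNA-binding protein of Arabidopsis thaliana. Seedlings were nsra mutants that carried NSRa-HA under its own promoter (pNSRa:NSRa-HA), all were treated with the synthetic auxin NAA for 24 h and irradiated 3 times with UV at 0.4 J/cm2, and each of the 3 groups had 2 libraries. RIP libraries came from the anti-HA precipitation, Mock libraries from the IgG precipitation of plants of the same genotype, and Input libraries from lysate set aside before the precipitation. The labels give the age as 10 days in one place and as 14 or 15 days in another, and the NAA dose as 100 nM or 1 µM, and these could not be reconciled. All groups share the transgene, the auxin treatment and the UV irradiation, so there was neither an untagged nor an untreated library, and nothing says that replicates 1 and 2 came from separate plant batches.

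An IgG precipitation collects RNA that stays with the beads, the tube or an unspecific antibody, and it is the usual negative control of RNA immunoprecipitation. Many abundant RNAs of a plant cell lack a poly(A) tail and live in stable particles: U snRNAs of the spliceosome, U3 and other small nucleolar RNAs (snoRNAs) that guide ribosomal RNA maturation, ribosomal RNA itself, and 7SL RNA, the scaffold of the signal recognition particle that directs ribosomes to the endoplasmic reticulum. Plant genes for U snRNAs, U3 and 7SL share a promoter word, the upstream sequence element, placed before a TATA box. The distance between both is known to set which RNA polymerase transcribes the gene, with the longer spacing in snRNA genes read by polymerase II and the shorter spacing in genes read by polymerase III.

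The Mock libraries were shallow. They held 197923 and 154149 reads against 1599136 and 977230 reads in RIP and 27494964 and 25274634 reads in Input, so that 1 read was worth 5.05 and 6.49 CPM, the share of a library on a fixed scale, in Mock replicates 1 and 2. A feature with no read could be as high as 15.2 and 19.5 CPM (3 reads), counting error only. The leaf markers LHCB1.3 (CAB1), RBCS1A and RCA were present in every library, while the root markers SHR, SCR, EXP7 and COBL9 had reads in Input and 0 reads in both Mock libraries. The leaf markers stood at 2572 to 12560 FPKM (reads scaled to length and depth) in Input and the root markers at 2.77 to 11.9. Tissue and level therefore cannot be told apart here. In RIP, SHR had 72 and 32 reads, SCR 73 and 71, and EXP7 and COBL9 had 0. NSRa itself had 54 and 14 reads in Mock, 349 and 155 in RIP and 471 and 460 in Input. In CPM this was 273 and 90.8 in Mock, 218 and 159 in RIP and 17.1 and 18.2 in Input. Its log2 fold change over Input was 3.05 in Mock and 3.29 in RIP (limma adjusted p = 0.0184 and 0.0371).

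Among the features that stood highest over Input in Mock were 7SL, U1 and U3 RNAs and genes whose annotated transcripts hold such sequence. The sequences of 3 of them are printed here because the result turns on what these features contain. They were read from the RefSeq assembly TAIR10.1 at the annotated positions of U1.5 (AT1G08115, chr1:2538074-2538238, minus strand), AT4G04595 (chr4:1476284-1476583, plus strand, first 300 bases) and AT1G05163 (chr1:5297889-5298188, minus strand, 300 bases inside a lncRNA gene). Capitals in U1.5 mark the stretch that pairs with the 5′ splice site. Capitals in the other 2 mark the longest stretch shared by all 5 features with 7SL sequence.
U1.5: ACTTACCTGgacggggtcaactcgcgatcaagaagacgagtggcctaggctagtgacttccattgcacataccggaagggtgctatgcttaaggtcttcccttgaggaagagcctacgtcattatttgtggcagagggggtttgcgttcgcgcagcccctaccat
AT4G04595: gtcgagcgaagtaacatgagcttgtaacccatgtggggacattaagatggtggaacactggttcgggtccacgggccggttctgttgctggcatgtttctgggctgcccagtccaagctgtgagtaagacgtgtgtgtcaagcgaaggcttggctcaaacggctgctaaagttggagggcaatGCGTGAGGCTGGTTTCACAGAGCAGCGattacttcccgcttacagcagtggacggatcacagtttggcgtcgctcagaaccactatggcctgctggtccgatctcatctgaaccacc
AT1G05163: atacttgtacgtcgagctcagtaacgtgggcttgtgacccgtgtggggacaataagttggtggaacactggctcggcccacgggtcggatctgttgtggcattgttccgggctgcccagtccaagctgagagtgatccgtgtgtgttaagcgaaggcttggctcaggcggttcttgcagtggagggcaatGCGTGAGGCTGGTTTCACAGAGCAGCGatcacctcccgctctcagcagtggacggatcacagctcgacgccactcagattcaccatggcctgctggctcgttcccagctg

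The promoter word of these genes was searched as TCCCACATCG, the 10 bases at chr1:2538306-2538315 before U1.5, in each gene and the 300 bases before it. The windows below hold 60 bases each, beginning 5 bases before the word, with the word and the next TATA in capitals, for 2 snRNA genes, U3B and 2 genes with 7SL sequence. Their positions are U1.5 chr1:2538261-2538320 (minus strand), U4.2 chr3:2178361-2178420 (minus), U3B chr5:21888222-21888281 (plus), AT1G05163 chr1:5298189-5298248 (minus) and AT4G04565 chr4:1472656-1472715 (plus).
U1.5 upstream: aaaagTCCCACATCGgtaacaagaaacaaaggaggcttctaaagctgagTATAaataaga
U4.2 upstream: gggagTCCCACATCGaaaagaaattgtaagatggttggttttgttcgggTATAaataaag
U3B upstream: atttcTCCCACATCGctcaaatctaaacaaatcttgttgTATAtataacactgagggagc
AT1G05163 upstream: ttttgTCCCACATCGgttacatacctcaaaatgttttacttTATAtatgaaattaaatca
AT4G04565 upstream: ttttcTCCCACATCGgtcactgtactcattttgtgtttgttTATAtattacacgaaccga
The word and TATA stood 34 bases apart in U1.5 and U4.2, 24 in U3B and 26 in both genes with 7SL sequence.

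Over all features, Mock against Input was tested with limma on log2(FPKM + 1), where FPKM is reads scaled to transcript length and library size, and a feature was called at a log2 fold change beyond 2 with a Benjamini-Hochberg adjusted p below 0.01. Of 19997 features tested, 143 were called higher in Mock (0.715%) and 8205 lower (41%). The features tested had a median of 18.5 CPM in Input and of 0 FPKM in Mock. That Input level is near the 15.2 and 19.5 CPM of 3 reads in the Mock libraries. For features near or below it, a lower call cannot be told apart from shallow depth. All 143 higher features were among the 1511, along with 83 lower ones. The rule asked for reads in Mock, so both counts describe the group and test nothing about it. All 1511 were tested. Of these, 7 reached the low-value filter only with their Mock values, and 2 of the 7, SARD1 and XLOC_033646, were called higher. The median log2 fold change was -0.38 in the 1511 and -2.70 over all features tested. Quantile normalization moved these medians to 0.80 and -1.43, so the sign of the first rests on the scaling. With Input replicate 1 or Input replicate 2 left out, limma called 0 features higher and 0 lower at the adjusted p, while without adjustment 129 of the 1511 lay higher and 81 lower with p below 0.05. In these fits without an Input library the median log2 fold change stayed near that of the main fit. It was -0.37 and -0.38 in the 1511 and -2.82 and -2.80 over all features tested. Levels are those of whole seedlings, where fewer cells of a type and less RNA per cell cannot be told apart.

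**Figure D1:**
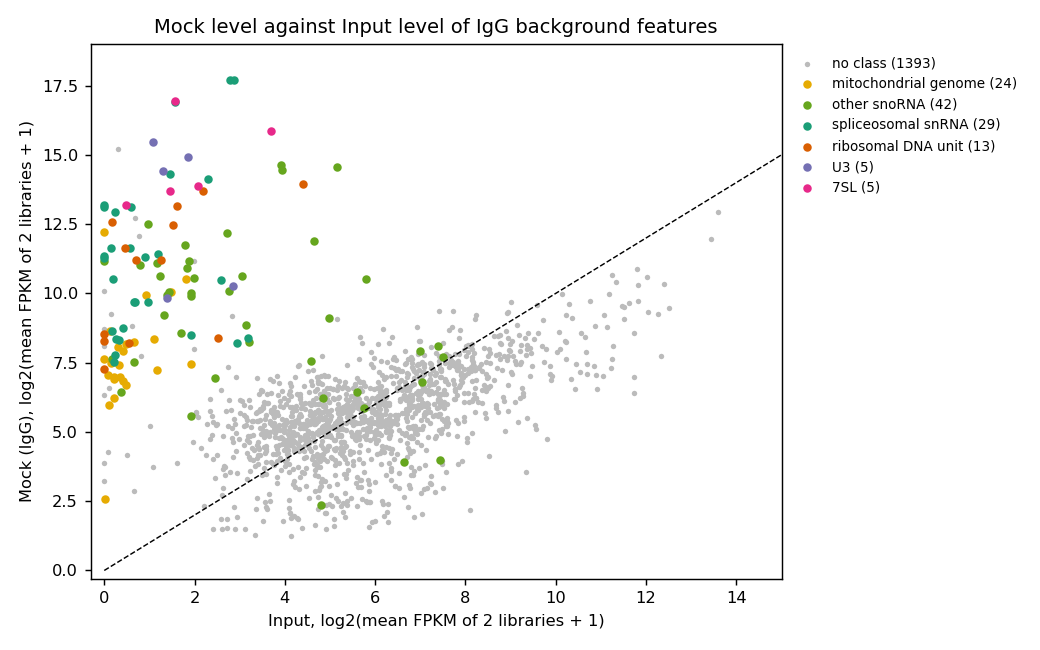
Mean Mock level (vertical) against mean Input level (horizontal), both as log2(FPKM + 1), for the 1511 features, with the line of equal level dashed. Points are coloured by sequence class, where other snoRNA is by gene type or overlap with a snoRNA gene. Features without a class scatter on both sides of the line (Spearman rho with Input over the 1511 is 0.0738 for Mock replicate 1 and 0.289 for replicate 2), and the 7SL, U3, snRNA, ribosomal DNA and mitochondrial features stand at the upper left.

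The protein-coding gene RR3 (AT2G41310), a type-A response regulator of cytokinin signalling, held the most reads of Mock replicate 1 and, summed over both Mock libraries, of any feature. It had 39484 and 12581 reads in Mock, 4189 and 4421 in RIP and 774 and 716 in Input. This was 19.9% and 8.16% of the Mock libraries. Its level was 59305 ± 35169 FPKM in Mock against 11.9 ± 0.0532 in Input (mean ± SD, n = 2), a log2 fold change of 12.03 (SE 0.55, limma adjusted p = 0.000224). With voom on recovered reads it was not called (limma adjusted p = 0.0195). Both Mock libraries lay above both RIP libraries, and these above both Input libraries. Of the 10 type-A response regulators, 7 were tested and RR3 was the only one with reads in both Mock libraries.

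RR3 holds a stretch like 7SL RNA at chr2:17224529-17224755 on the plus strand, after the coding sequence, with 71.7% identity over 233 aligned positions. The word TCCCACATCG stood upstream of it at chr2:17224445-17224454, 24 bases before a TATA. The files give 1 value for the whole gene, so reads from this stretch and from the response regulator's coding part cannot be told apart.

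AT1G05163, annotated as a lncRNA, had 23650 and 9638 reads in Mock, 6093 and 3260 in RIP and 46 and 30 in Input. Its log2 fold change of 15.30 (SE 0.38) had a limma adjusted p of 8.81e-05, and its Mock and Input libraries did not overlap. Along 291 aligned positions it was 81.4% identical to the gene annotated as AT7SL-1 (AT4G02970), read on the strand opposite to its annotation. AT4G02970 as annotated had 0 reads in Mock and RIP, on the annotated strand.

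The other 3 features with 7SL sequence were lower in reads. AT2G31141 (protein-coding by annotation) had 2107 and 1088 Mock reads against 29 and 33 in Input, AT4G04595 had 1494 and 987 against 42 and 37, and AT4G04565 had 1156 and 562 against 8 and 3. Their log2 fold changes were 12.19, 11.79 and 12.66 (limma adjusted p between 8.81e-05 and 0.000143). In each of these genes both Mock libraries lay above both Input libraries. Together the 5 features held 34.3% and 16.1% of Mock reads (95% Wilson intervals 34.1 to 34.5 and 15.9 to 16.3), 0.733% and 0.886% of RIP reads and 0.00327% and 0.00324% of Input reads. RR3 alone held 19.9% and 8.16% of Mock reads, which cannot be assigned to its 7SL-like stretch. The intervals cover counting error only, and the Mock replicates differed by more than they allow.

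The stretch in capitals printed for AT4G04595 is 27 bases long. Among 32674 annotated features, 6 held it on the sense strand, and all 6 were called higher in Mock. The sixth is AT1G49700, a gene of unknown function with 39 and 59 Mock reads against 84 and 95 Input reads, and its 79-base match was under the length set for the 7SL class. The stretch was chosen after the values were seen, and its matches are a description.

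U1 is the snRNA that recognises the 5′ splice site. U1.6 (AT3G01715) and U1.7 (AT3G01695) carried the same 6747 and 5337 reads in Mock and are described as 1. U1.6 stood at 212072 ± 2328 FPKM in Mock, 274689 and 467137 in the RIP libraries and 6.32 ± 0.0451 in Input, with a log2 fold change of 14.82 (SE 0.27, limma adjusted p = 8.81e-05) for Mock and 15.58 for RIP. The Mock libraries agreed closely here, and both were below both RIP libraries. U1.5 had 3872 and 3210 reads in Mock, 42211 and 42278 in RIP and 9 and 8 in Input, a log2 fold change of 15.34 (SE 0.26, limma adjusted p = 8.81e-05), the largest among the 26 features named by rule. With no filter on low values neither U1.5 nor U1.6 was called (limma adjusted p = 0.256 for U1.6).

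Over all kinds, 29 features held snRNA sequence and 27 were called higher. The 9 U1 features took 10.1% and 10.2% of Mock reads and 13.4% and 22.3% of RIP reads as deposited. With features that carry the same Mock reads counted once, the remaining 7 took 6.41% and 6.47% of Mock and 8.59% and 14.2% of RIP. U2, which pairs with the branch point, U4 and U5 of the tri-snRNP and U12 of the minor spliceosome were also in this group. They were much scarcer, at 0.163% and 0.319% of Mock reads for U2, 0.315% and 0.281% for U4, 0.239% and 0.714% for U5 and 0.0435% and 0.0519% for U12. Of 10 annotated features with sequence of U6, the catalytic snRNA, 0 had reads in Mock replicate 1 and 1 in replicate 2, so none was in the group. A U6 gene whose annotated position lacks its sequence would not be counted here. Of 78 annotated snRNA genes, 34 held snRNA sequence at their annotated position, and all 19 snRNA genes in the group came from these. The other 44 lack such sequence there, and none of them was in the group.

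U3 is a snoRNA of early ribosomal RNA processing. U3D (AT5G54075) had 3705 and 2092 reads in Mock, 2889 and 922 in RIP and 10 and 11 in Input, and U3B (AT5G53902) had 3554 and 2014, 2838 and 945, and 27 and 27. Their log2 fold changes in Mock were 14.36 and 13.12 (SE 0.40 each, limma adjusted p = 0.000104 and 0.000117). Both genes had both Mock libraries above both RIP libraries in CPM. The other 3 features with U3 sequence, among them AT5G08155 with 1442 and 667 Mock reads, were called higher too.

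Of the other snoRNA genes with at least 10 reads in each Mock library, AT4G07075 had the largest log2 fold change over its near-0 Input level, with 135 and 76 reads in Mock, 158 and 67 in RIP and 1 and 4 in Input and a log2 fold change of 11.59 (SE 0.48, limma adjusted p = 0.000213). The 23 snoRNA genes had a median log2 fold change of 8.62, and 20 were called higher. Over all 172 snoRNA genes tested the median was -1.71, so most of that family had few or no Mock reads. A protein-coding gene that overlaps a snoRNA gene on the same strand, AT2G35750, had 2960 and 1287 Mock reads against 187 and 207 in Input. In CPM both its Mock libraries lay above both RIP libraries. Of 15 such protein-coding genes, 3 were called higher and 2 lower, AT1G04480 and ARF1A1C. EIF4A1, an RNA helicase of translation initiation, was not, with 44 and 54 Mock reads against 9233 and 8464 in Input and a log2 fold change of -0.26.

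Ribosomal RNA was removed with a depletion kit, and parts of the ribosomal DNA unit were still present in Mock. The 18S genes AT2G01010 and AT3G41768 had 698 reads each in Mock replicate 1, 764 and 765 in replicate 2 and 27 to 77 in the Input libraries. They are copies of each other and are counted by the same reads in Mock. AT3G06355, annotated as a lncRNA at chr3:14199575-14200076 just behind AT3G41768, had 1139 and 1540 reads in Mock, 1106 and 595 in RIP and 313 and 220 in Input. AT2G16586, annotated as protein-coding, matched the unit over 608 positions at 98.8% and had 3660 and 1734 Mock reads against 126 and 87 in Input. AT2G01008 matched over 1305 positions at 98.7% and had 883 and 899 against 18 and 14. Of 13 features with this sequence, 12 were called higher, with log2 fold changes over the 13 from 5.83 to 12.39.

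Mitochondrial sequence was found in 24 of the features, and all 24 lie on chromosome 2, where the nuclear genome carries a large copy of mitochondrial DNA. Reads of the copy and of the organelle cannot be told apart. AT2G07732 had 420 and 761 reads in Mock, 1269 and 500 in RIP and 0 in both Input libraries, at least 17900-fold higher in the lower Mock library than the Input floor of 3 reads per library. It also matched the chloroplast over 573 positions at 96.9%. AT2G07698 had 456 and 382 reads in Mock, 5579 and 1956 in RIP and 70 and 46 in Input, with a log2 fold change of 9.02 in Mock and 9.16 in RIP. AT2G07675 and AT2G07671 had 97 and 94, and 108 and 168, Mock reads and log2 fold changes of 8.70 and 8.48. Of the 24, 22 were called higher, and the class had a median log2 fold change of 7.03 in Mock and 7.26 in RIP.

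The gene GRF8 (AT4G24150), a growth-regulating transcription factor, held the most reads of Mock replicate 2 and none of these sequences. It had 14463 and 13190 reads in Mock, 1165 and 2830 in RIP and 12 and 14 in Input. This was 7.31% and 8.56% of the Mock libraries. Its log2 fold change was 14.91 (SE 0.74, limma adjusted p = 0.000246), and both Mock libraries lay above both RIP libraries in CPM. The word TCCCACATCG was not in its window. The growth-regulating factor AT2G36400 (GRF3) had 22 and 2 Mock reads and a log2 fold change of 0.54, which was not called.

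The assembled locus XLOC_041437 had 388 and 349 Mock reads against 6 and 4 in Input, a log2 fold change of 12.03. XLOC_033646 had 24 and 13 Mock reads, 0 and 1 in RIP and 0 and 1 in Input, and was not called without Mock replicate 1 (limma adjusted p = 0.0130). Neither locus has an annotated position, so neither could be assigned a kind of RNA. AT5G07745, annotated as a lncRNA, holds U1 sequence over 165 positions at 93.9% and had 642 and 509 reads in Mock, 9825 and 8672 in RIP and 2 and 2 in Input.

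**Figure D2:**
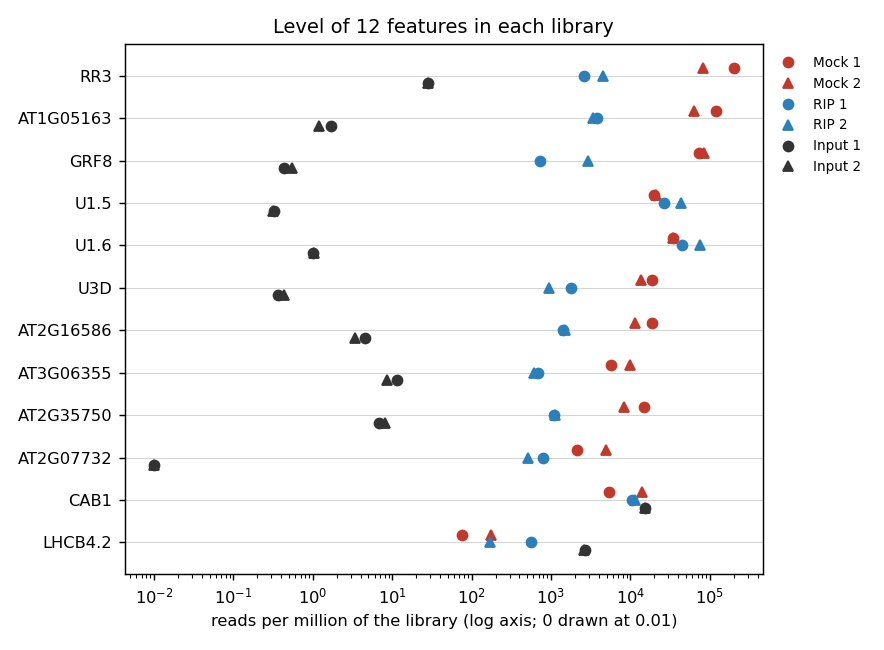
Levels of named features in CPM on a log axis, with 1 point per Mock, RIP and Input library and 0 drawn at 0.01. RR3 stands at 199492 and 81616 CPM in Mock and at 28.2 and 28.3 in Input.

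Some of these sequences lie in the transcripts of genes with another product. PRIN2, a plastid redox protein, holds U3 sequence over 234 positions at 95.3% before its coding sequence and had 411 and 144 Mock reads, 455 and 119 in RIP and 211 and 195 in Input. LAF3, a gene of phytochrome signalling, holds U5 sequence before its coding sequence and had 100 and 214 Mock reads. AT4G23420 holds U1 sequence over 165 positions at 95.8% and carried the same 664 and 400 Mock reads as U1.2, which lies inside it. AT2G20410 holds U2 sequence and had 69 and 102. The 4 genes were called higher, with log2 fold changes of 7.29, 5.02, 7.87 and 5.20, and were chosen after their values were seen.

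By kind of sequence, 98 of the 143 features called higher (68.5%) fell in the ribosomal DNA, 7SL, snRNA, U3, other snoRNA or mitochondrial class. The share was 7.81% in the group (118 of the 1511) and 1.90% over all features tested. The 27 other snoRNA features called higher were taken by gene type or overlap with a snoRNA gene, not by a sequence match. Without them 71 of the 143 fell in a class. With a stricter match of at least 75 bases at 98% identity, 71 of 143 (49.7%) fell in one. The stricter match did not apply to 7SL, or to snoRNA features taken by gene type or overlap, which were kept as before. The classes were set after the values were seen. Among protein-coding genes 29 of 67 called higher fell in a class (43.3%), against 43 of 1422 in the group (3.02%) and 120 of 19090 tested (0.629%). The word TCCCACATCG, counted on the sense strand of the gene and the 300 bases before it, was in 119 of 32674 annotated features (0.364%) and on the other strand in 92 (0.282%). It was in 41 of 141 annotated features called higher (29.1%), in 7 of 1284 not called (0.545%) and in 0 of 83 called lower. All 27 snRNA, 5 U3 and 5 7SL features called higher held it, as did 1 of 27 other snoRNA features, 0 of 12 with ribosomal DNA and 0 of 22 with mitochondrial sequence. A match is a description and not a site.

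**Figure D3:**
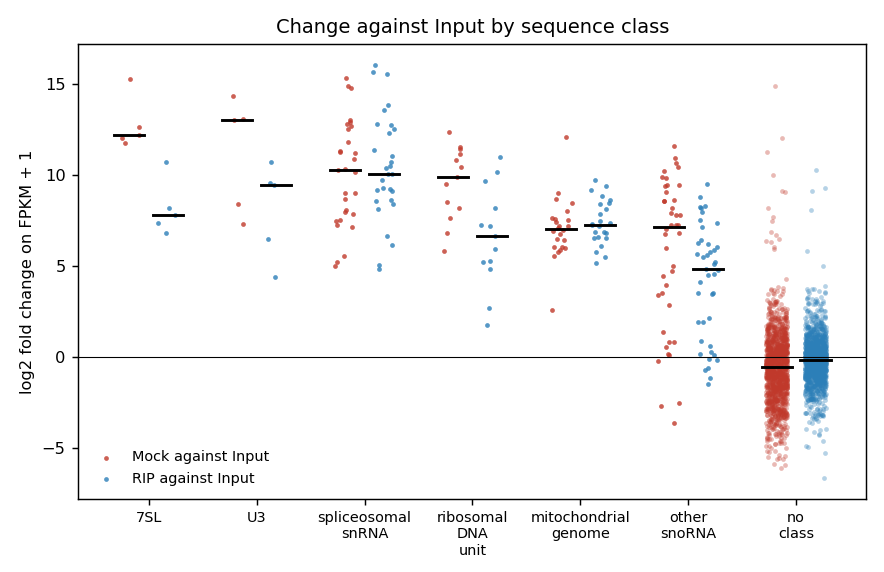
Log2 fold change of Mock over Input for the 1511 features by kind of sequence, 1 point per feature, with RIP over Input beside it and medians as black lines. The Mock medians are 13.05 for U3, 12.19 for 7SL, 10.27 for snRNA and -0.56 for the features with no class.

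Input held very little of these RNAs, although the methods state no poly(A) step. All 78 snRNA genes took 0.00263% and 0.00281% of Input reads, and all 249 snoRNA genes 0.0187% and 0.0195%. A fold change over Input for these kinds therefore sets Mock against a level near 0, and the cause of the low Input level was not tested. Of the 12 features annotated as lncRNA in the group 11 were called higher, and of the 9 annotated as ncRNA 6 were, against 143 of the 1511. The group held 12 of 312 lncRNA and 9 of 104 ncRNA features tested, against 1511 of 19997 over all types. Over all tested, the median log2 fold change was -1.54 for lncRNA and -2.69 for ncRNA. The lncRNA features AT1G05163, AT4G04565, AT5G07745, AT3G06325 and AT3G06355 hold 7SL, U1 or ribosomal DNA sequence. Among the non-coding genes not called were AT4G13495, AT4G36648 and AT3G12965. They had 4013 and 3849, 3169 and 2868, and 523 and 443 reads in Input. In Mock they had 1 and 8, 1 and 21, and 1 and 1.

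The RIP libraries give a second view, since they took no part in the choice of features. RIP against Input called 296 features higher (1.48%) and 1155 lower (5.78%) over all tested, and 96 and 6 of the 1511. Of the 143 features higher in Mock, 95 were higher in RIP too, with a median log2 fold change of 6.51 in RIP and 7.59 in Mock. Both comparisons share the Input libraries. In CPM, 218 of the 751 features with at least 10 reads in each Mock library had both Mock libraries above both RIP libraries (29.0%), and 153 had both below. The 751 were chosen by their Mock reads, which favours Mock in this order. These counts and those by kind describe the 751 and test nothing. The kinds differed here. All 12 ribosomal DNA, 5 7SL and 5 U3 features and 26 of 32 other snoRNA features lay higher in Mock, against 4 of 25 snRNA and 3 of 20 mitochondrial features. Among snRNA features 9 lay higher in RIP. These are shares of each library, and a larger share is not a larger amount of RNA. In reads, the ribosomal DNA features had 8240 and 6878 in Mock and 10729 and 6277 in RIP. The paper reports that RNA from the IgG eluate was below detection.

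**Figure D4:**
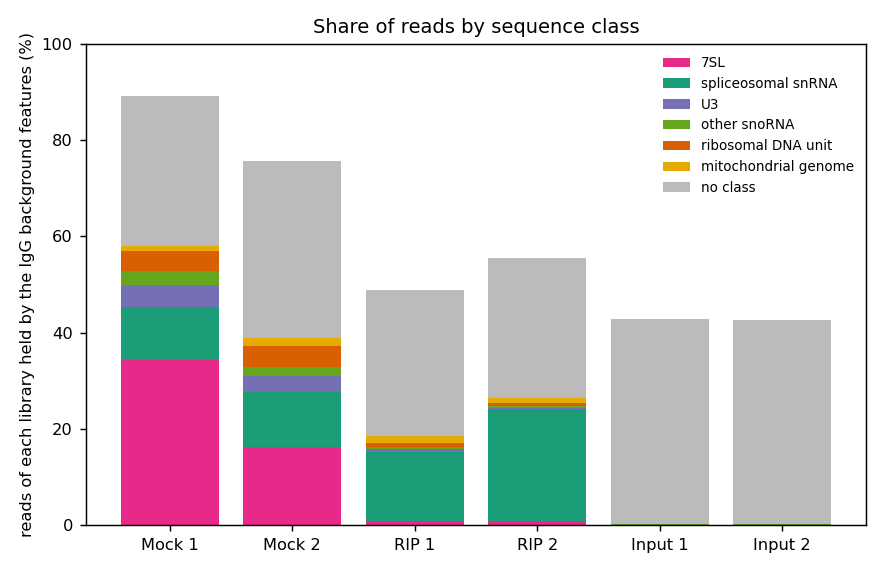
Share of each library's reads taken by each kind of sequence among the 1511 features. 7SL features took 34.3% and 16.1% of Mock reads and 0.733% and 0.886% of RIP reads. Among these, RR3 alone took 19.9% and 8.16% of Mock reads, which cannot be assigned to its 7SL-like stretch. The snRNA features took 10.9% and 11.6% of Mock and 14.5% and 23.2% of RIP. With copies counted once they took 7.15% and 7.83% of Mock and 9.65% and 15.1% of RIP.

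By annotation 1422 of the 1511 features were protein-coding, and these held 57.0% and 49.8% of Mock reads, 32.9% and 31.6% of RIP reads and 42.8% and 42.5% of Input reads. RR3 and GRF8 are among them, and 43 of the 1422 fall in one of the classes above. The 1379 outside these classes held 30.3% and 36.0% of Mock reads and 42.6% and 42.4% of Input reads. Over the 1422 the median log2 fold change was -0.52, with 67 called higher and 83 lower. Presence followed Input level. Of features with 10 to 100 CPM in Input 5.20% were present in both Mock libraries, of those with 100 to 1000 CPM 41.2%, and of those with 1000 or more 94.9% (74 of 78). The median Input level was 102 CPM in the group and 18.5 CPM over all features tested. The median of those called higher was 0.769 CPM.

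**Figure D5:**
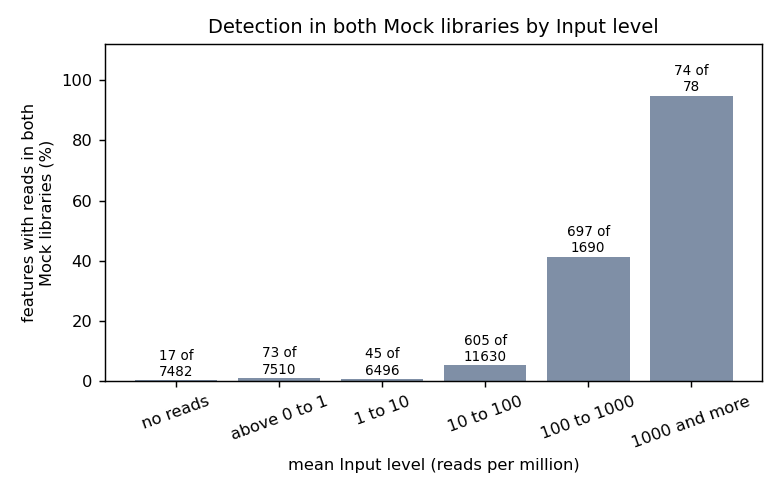
Share of features present in both Mock libraries by Input level in CPM. The share is 0.227% for features without Input reads and 94.9% at 1000 CPM and more.

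Protein-coding genes of the group with 10 to 100 CPM had a median length of 2317 bases against 1892 for other tested protein-coding genes. With 100 to 1000 CPM it was 2005 against 1905. Within these bins the genes of the group also had the higher median Input level, 56.0 against 26.6 CPM and 204 against 137 CPM. With 1000 CPM and more, the length was 1392.5 bases against 1687.5 in only 4 others. Features of any type called higher had a median of 858 bases, against 1987 in the group and 1739 over all tested. Of those called higher, 90 of 141 had 1 exon, against 13.1% of the group and 15.2% of all tested. The 45 called higher outside the sequence classes had a median of 1728 bases, and 28.9% of them had 1 exon.

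Nuclear photosynthesis genes were the list with the largest share in the group, 50 of 70 tested (71.4%, against 7.56% of all tested). None was called higher and 13 were called lower, against 83 of the 1511, with a median log2 fold change of -2.38. Over all 70 tested, 22 were called lower, against 8205 of 19997 over all features tested. The tested genes of the list had a median Input level of 1190 FPKM, against 10.2 FPKM over all features tested. CAB1, a chlorophyll-binding protein of photosystem II, had 1073 and 2126 reads in Mock and 424757 and 380469 in Input and was not called (-0.82). LHCB4.2 had 15 and 27 Mock reads, LHCA4 113 and 197 and LHCA1 88 and 173, and PSBQ-2, a subunit of the oxygen-evolving complex, 39 and 38. Their log2 fold changes were -4.50, -3.14, -3.14 and -3.25 (limma adjusted p between 0.00211 and 0.00894). With a replicate block LHCB4.2, LHCA4 and LHCA1 were not called (limma adjusted p = 0.0259, 0.0182 and 0.0191), nor were LHCA4 and LHCA1 without either RIP library (limma adjusted p between 0.0169 and 0.0241). LHCB4.2 was not called without Mock replicate 1 or 2 (0.0261 and 0.0118), and LHCA4 not without Mock replicate 1 (0.0102). In 47 of the 50 both Mock libraries lay below both Input libraries in CPM, against 587 of the 1511. The metallothionein gene MT2B fell by 3.52 on the log2 scale, from 28726 and 26521 Input reads to 25 and 10 in Mock.

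Cytosolic ribosomal protein genes gave 73 of 317 tested, with 0 called higher, 5 lower and a median of -0.77. Translation factors gave 10 of 32, none called, with a median of 0.45. Histones gave 6 of 44, aquaporins 11 of 24 and tubulins and actins 12 of 29, with 0 called higher in each. Heat shock proteins gave 18 of 71 with 2 called higher, HSP70 (59 and 38 Mock reads, log2 fold change 2.64) and AT1G07400 (29 and 16).

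Of all features tested 7.56% were in the group, and the transcription factor families are given beside that share with no test of a difference. No MYB gene of 98 tested was in the group, and 1 of 92 bHLH, 2 of 52 bZIP, 3 of 62 NAC, 3 of 50 WRKY and 5 of 80 ERF-type genes were. Of these, 2 were called higher, WRKY26 with 29 and 17 Mock reads (2.93) and ERF104 with 25 and 11 (3.77). SR and glycine-rich RNA-binding protein genes gave 5 of 50 and 0 called higher, and the auxin families Aux/IAA, GH3 and SAUR gave 5 of 85 with WES1 called lower (-2.75). NBS-LRR resistance genes gave 14 of 113, none called, with a median of 0.95.

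The Mock replicates agreed poorly for rare features. Reads were above 0 for 2449 features in replicate 1 and 5651 in replicate 2, and 5078 features had reads in 1 library only, 2149 of them with at least 10 reads there. Of the 1511, 428 had a single read in at least 1 Mock library. The SD of the log2 ratio between the Mock libraries was 2.53 over all of them against 0.10 between the Input libraries, and 1.15 for the 751 with at least 10 reads in each. Of the 83 called lower, 48 had at most 2 reads in both Mock libraries. Leaving out Mock replicate 1 or 2 gave 228 and 358 lower calls among the 1511. With 2 libraries a group an exact permutation test cannot go below 0.333, so single values carry no test of their own. For each feature limma pooled the spread within Mock, RIP and Input into 1 estimate. Its p-values therefore do not measure the spread between the Mock libraries alone.

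At the threshold, AT3G59500 (log2 fold change 2.02), AT2G20670 (2.03) and the receptor-like kinase gene AT1G72180 lay just inside the calls and AT4G39420 (1.61) just outside.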

How the data were processed

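RNA immunoprecipitation sequencing libraries were made from crosslinked seedlings after ribosomal RNA depletion with a stranded kit, without a poly(A) step, and read as single ends of 75 bp. The study mapped reads with STAR and counted them per gene by strand. The deposited values are FPKM that the authors made per library, and the submitters' notes name TAIR10. Whole reads were recovered from the FPKM steps for 99.1 to 99.3% of values (tolerance 0.0001). CPM and read shares come from these reads, with 95% Wilson intervals.

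Features with a value in all 6 libraries and at least 1 FPKM in at least 2 were tested with limma 3.58.1 (R 4.3.3) on log2(FPKM + 1) over the 3 groups, with Benjamini-Hochberg adjustment. Fold changes on this scale understate changes of low features. Sequence classes were assigned with blastn 2.17.0 against RefSeq TAIR10.1 (at least 50 bases at 90% identity, and for 7SL at least 100 bases at any identity with an E value up to 0.001). Other snoRNA features were taken by gene type or by same-strand overlap with a snoRNA gene. In all, 32674 features matched the annotation. The 968 features with no Mock value were left out.

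By rule, 26 features with at least 10 reads in each Mock library were named: the 10 highest in Mock, the 10 protein-coding genes with the largest rise, up to 3 each of lncRNA, snRNA, snoRNA and assembled loci (2 loci qualified), and the 5 lowest. Others were chosen after their values were seen. Members and lists were chosen with earlier results of these data known. The test was checked on simulated data. The alternatives are given in the closing section.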

Additional observations from a re-analysis of the deposited data

How the results depend on the processing

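Counts of calls depended on the Input libraries, while the fold changes of AT1G05163 and GRF8 moved little. Their log2 fold changes were 15.46 and 14.88 without Input replicate 1, and 15.14 and 14.95 without Input replicate 2. With either one left out, limma called 0 of the 1511 features higher and 0 lower, and without adjustment 129 lay higher and 81 lower with p below 0.05. Over single libraries left out, calls among the 1511 ranged from 0 to 212 higher and 0 to 358 lower, over all tested from 0 to 425 and 0 to 10318, and for RIP in the 1511 from 0 to 132 and 0 to 60. Over all tested, voom on recovered reads gave 233 higher and 2648 lower, quantile normalization 4193 lower and a pseudocount of 5 FPKM 3423 lower. Lower calls in the 1511 were 52 with 2 groups fitted, 41 with quantile normalization, 50 with no filter, and 26 and 19 with at least 3 and 10 reads asked for in each Mock library, which left 995 and 751 features and a median Input level of 109 and 125 CPM. For RIP, voom gave 29 higher and 0 lower, and lower calls were 61 with 2 groups, 20 with quantile normalization, 3 with no filter and 3 with at least 10 reads. Without the largest feature of each library protein-coding features held 45.7% of Mock reads and snRNA 11.9%, and with copies counted once snRNA held 6.71%. Equal replicate numbers did not pair the samples (correlations -0.00166, 0.00846 and 0.0122), and a replicate block gave 102 higher and 28 lower for Mock and 60 and 0 for RIP. Of the 26 features named by rule, 26 lost the call without either Input library, 8 with no filter, 4 with voom, 3 with the block, 3 and 1 without Mock replicate 1 and 2, 2 with 2 groups, 2 without either RIP library and 1 with a pseudocount of 0.1 FPKM, and none changed sign. The cause of these shifts was not tested. Depth limits the Mock libraries most, where 3 reads are 15.2 and 19.5 CPM.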
